A study of Homo sapiens with 4 samples.

Results

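The 8 genes described here encode translation factors, proteins that work beside the ribosome, and factors of nonsense-mediated decay: EIF3A, EIF4G1, ABCF1, PRRC2A, PRRC2C, NAA15, UPF2 and UPF3B. They were selected by their function and on the peaks already recorded for them in these lists, out of 847 protein-coding genes with a peak in any list, so the presence of a peak in each of them is a result of the choice. Members were found as peaks that touch the annotated gene span on GRCh38, whatever the strand, and 36 peaks in all were found. All groups are RD cells, an embryonal rhabdomyosarcoma cell line, that is, a tumour line of the skeletal muscle lineage. RNA bound to biotinylated antisense probes was recovered from these cells and sequenced. The ZNF609 probes came as an even and an odd set against its exon 2, the exon that forms the circular RNA circ-ZNF609. A control set was directed at the mRNA of the bacterial gene LacZ. No genotype or drug treatment distinguished the groups. Each probe set had 1 library, so no value below has a replicate error and no difference between probe sets has a test. The total lysate was not analysed here, so the amount of an RNA in the cells and its recovery by the probes cannot be told apart.

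Translation of most mRNAs starts when the initiation factors eIF4F and eIF3 bring the small ribosomal subunit to the capped end of the message. EIF4G1 encodes the scaffold of eIF4F and EIF3A the largest subunit of eIF3. Nonsense-mediated decay is a surveillance pathway coupled to translation that degrades messages whose stop codon lies in an unusual context, and UPF2 and UPF3B link its helicase UPF1 to the protein complexes left at exon junctions.

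The lists held 502 even, 542 odd and 722 LacZ peaks, with 482418, 279415 and 219401 reads in them. A value called reads per bin is the number of reads in a window of 170 bases, or the mean over adjoining windows that form 1 peak, and it is not scaled to the size of the library. The weakest peak of the lists had 108 reads per bin with even, 105 with odd and 38 with LacZ probes. Peaks enter the lists by p-value and not by reads. A gene with no listed peak may thus still have had reads, below these levels or above them. The target ZNF609 had even and odd peaks and 0 LacZ peaks, with 704 reads per bin in its even peak and 394 in its strongest odd peak. By p-value these stood at rank 63 of 502 and 26 of 542. The even peak lay at 64499361 to 64500040 on chromosome 15, and the strongest odd peak at 64499531 to 64500040. Further odd peaks, with 174 and 230 reads per bin, lay apart from these at 64670381 and 64673781 and had no even counterpart. Peaks in the gene span were not divided between circular and linear ZNF609 RNA. Of 15 markers of muscle cells, 5 had a peak, among them DES and TNNT2, and MYOD1 and MYOG had none. A LacZ peak was found in 2 of the 5, TNNT2 among them. The share with a peak over all 20056 annotated protein-coding genes was 4.22%. Of 6 markers of blood, epithelial, endothelial and liver cells, 0 had a peak, though a peak list does not measure expression.

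All 36 peaks lay in 1 annotated gene each. The even and odd lists had 14 peaks in 7 members each, and the LacZ list had 8 peaks in 3 members. Among all 847 protein-coding genes with a peak, 36.5% had an even peak, 38.7% an odd peak and 52.5% a LacZ peak. EIF3A, ABCF1 and PRRC2C had peaks in all 3 lists, which 5.31% of those genes did. EIF4G1, NAA15 and UPF2 had peaks with both ZNF609 probe sets but not with LacZ probes, a class that held 4.96% of those genes. UPF3B had even peaks alone, as did 21.0% of those genes, and PRRC2A an odd peak alone, as did 21.5%. The members were picked with these patterns known, so the percentages are given as background and nothing is read from the comparison. The 8 genes held 5.84% of the reads in even peaks, 4.25% in odd peaks and 0.918% in LacZ peaks, and PRRC2C by itself held 4.16%, 1.87% and 0.387%.

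**Figure D1:**
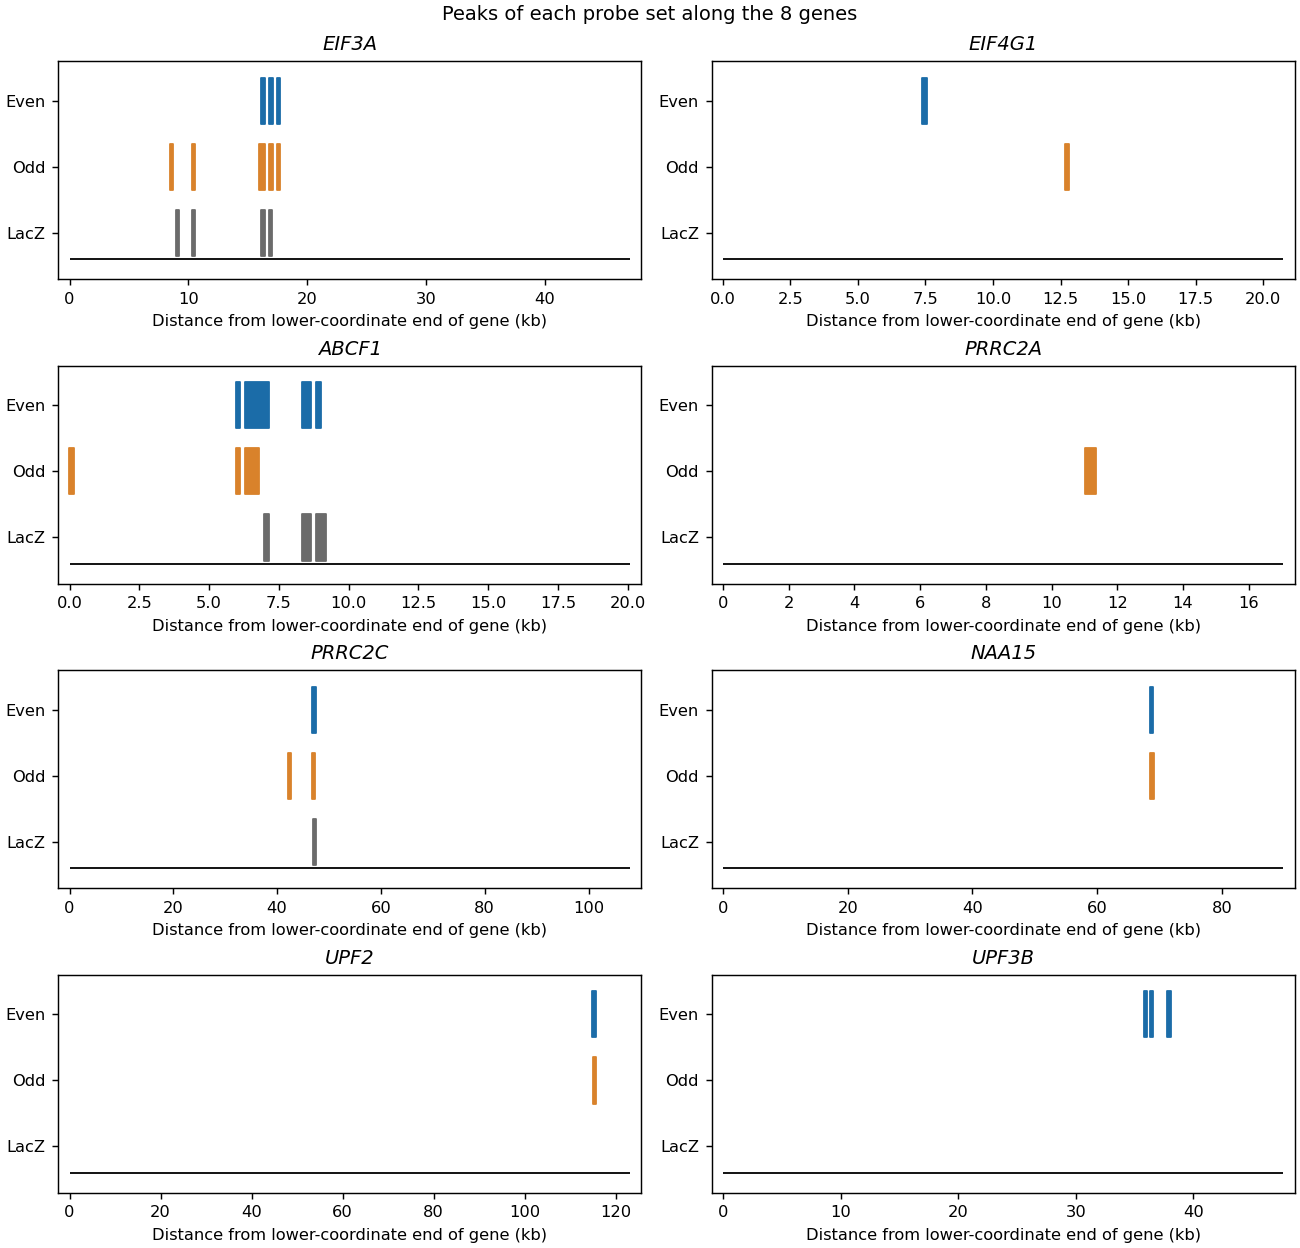
Position of every peak along each of the 8 genes (horizontal axis, distance in kb from the end of the gene with the lower coordinate; the black line is the gene span), with 1 row for each probe set. Bars narrower than 0.6% of a gene are drawn at that width. EIF3A, ABCF1 and PRRC2C have bars in all 3 rows, the EIF4G1 bars of the even and odd rows lie apart, and UPF3B and PRRC2A have bars in 1 row.

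The initiation factor genes differed in how many peaks they had and whether the control list held them. EIF3A (gene ID 8661) spans chromosome 10, 119033670 to 119080817, and had 3 even, 5 odd and 4 LacZ peaks. Of these, 8 lay within 1700 bases, at 119049641 to 119051340, which is 3.61% of the gene. In the even list these peaks had 462.5, 586 and 169 reads per bin, and in the odd list, from the same end, 596.3, 521.5 and 116. The LacZ list had 152.5 and 143 reads per bin in that stretch and no peak at its last window. With either ZNF609 probe set the weakest of the 3 peaks was thus the last, at 119051171 to 119051340. At that place the even peak had a 95% Poisson interval of 144 to 196 reads per bin and the odd peak one of 95.9 to 139. These intervals, like all intervals below, cover counting error alone.

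The remaining 4 EIF3A peaks lay at 119042161 to 119044200, and none was from the even probes. In the window 119044031 to 119044200 the odd probes gave 285 reads per bin and the LacZ probes 51. The odd peak at 119042161 to 119042330, with 136 reads per bin, was the member peak nearest to being left out. Its p-value was 0.00992, under the limit of 0.01 that all listed peaks meet, and bins beyond the limit are not in the lists. The lone LacZ peak at 119042671 to 119042840 had 48 reads per bin. Of the 4 EIF3A regions found with more than 1 probe set, the LacZ probes were absent from that at 119051171 alone.

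EIF4G1 (gene ID 1981; chromosome 3, 184314606 to 184335358) had 1 peak with each ZNF609 probe set and none with LacZ probes. The even peak at 184321991 to 184322160 had 228 reads per bin, with an interval of 199 to 260. The odd peak at 184327261 to 184327430 had 152, with an interval of 129 to 178. These peaks had 5100 bases between them and shared no base. By reads per bin both were below the median of their list. By p-value the even peak was at rank 239 of 502 and the odd peak at rank 514 of 542. In lists trimmed to their 502 strongest peaks the odd peak was no longer present, and EIF4G1 then had an even peak alone.

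ABCF1 (gene ID 23) encodes an ATP-binding cassette protein without membrane domains that associates with the initiation factor eIF2 and with ribosomes. It spans chromosome 6, 30571442 to 30591522, and had 4 even, 3 odd and 3 LacZ peaks. Of these 10 peaks, 9 lay within 3230 bases, at 30577391 to 30580620, and the remaining odd peak lay at the start of the gene. Along the 3230 bases the even probes gave 336, 320.6, 239 and 184 reads per bin. The odd probes gave 192 and 226.3 at the first 2 of these places and no peak at the others. The LacZ probes gave 95 at the end of the second, and 123.5 and 138.5 at the last pair. Even peaks were thus found at each of these places, odd peaks at the lower coordinates and LacZ peaks at the higher ones, and the LacZ peak at 30580281 reached 1 window further than the even peak. These reads are unscaled. By p-value the 3 LacZ peaks stood at 38.1%, 28.8% and 11.2% of the length of their list. The even peaks they overlapped stood lower, at 46.8%, 55.4% and 48.0%. Ranked by reads per bin, the first of these pairs went the other way, at 59.4% with LacZ and 44.6% with even probes. The even and odd probes shared 30577391 to 30577560 and 30577731 to 30578240, neither of which lay under a LacZ peak. The LacZ peak at 30578411 lay under the same even peak as the second of these, so by merged peaks the first alone was a region without LacZ. In that first window the even interval was 301 to 374 and the odd interval 166 to 221, neither scaled to the size of its library.

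The odd peak at the start of ABCF1, at 30571441 to 30571610, was the 1 member peak that touched a promoter window of RefSeq, which runs from 250 bases before to 50 bases after an annotated gene start. Its 185 reads per bin (interval 159 to 214) put it among the weaker odd peaks, at rank 328 of 542. It shared 51 bases with the window chr6:30571192-30571491 on the plus strand, and its other 119 bases lay further into the gene. The window is printed to show how little of the peak lies before the annotated start. Capitals mark the bases under the peak, from the RefSeq table on GRCh38.p14:

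ABCF1 promoter window: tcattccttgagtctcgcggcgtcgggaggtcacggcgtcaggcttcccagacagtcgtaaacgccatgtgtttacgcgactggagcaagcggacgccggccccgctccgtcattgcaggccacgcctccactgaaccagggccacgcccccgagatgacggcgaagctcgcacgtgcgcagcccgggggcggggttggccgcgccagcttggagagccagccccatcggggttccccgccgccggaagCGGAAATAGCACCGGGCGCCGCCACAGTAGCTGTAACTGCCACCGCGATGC

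The peak begins 1 base before the annotated start, and since peaks are built from fixed windows of 170 bases, that edge is set by the grid. Searched on either strand, the window held the GC box GGGCGG, found in 45.0% of the 35116 promoter windows of the table, and the ETS motif CCGGAAG, found in 10.3%. It did not hold CCAAT (34.6% of windows) or TATAAA (11.5%). Its GC content was 68.7%, against a median of 58.7%. Of all odd peaks 16 of 542 (2.95%) touched a promoter window, as did 6 of 502 even peaks and 19 of 722 LacZ peaks.

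The related genes PRRC2A and PRRC2C encode large proline-rich RNA-binding proteins that associate with the translation initiation machinery. PRRC2C had peaks with all probe sets and PRRC2A with the odd probes alone. PRRC2C (gene ID 23215; chromosome 1, 171485530 to 171593511) had nested peaks that all ended at base 171532890. The odd peak began at 171532211 and was 680 bases wide, the even peak at 171532381 and 510 bases wide, and the LacZ peak at 171532551 and 340 bases wide. They had 6685 reads per bin with even, 1268 with odd and 424.5 with LacZ probes. Relative to the median peak of the same list these were 22.8, 5.73 and 3.69 times as many. PRRC2C thus held the fifth-strongest even peak by reads (rank 5 of 502) and the odd peak at rank 7 of 542, and its LacZ peak was at rank 36 of 722. By p-value the same peaks stood lower, at ranks 169, 48 and 116. A further odd peak, with 142 reads per bin at 171527791 to 171527960, had no counterpart. The annotation holds a pseudogene named PRRC2CP1, and reads of PRRC2C are uncertain where alignment could divide them between near-identical copies.

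PRRC2A (gene ID 7916; chromosome 6, 31620715 to 31637771) had 1 peak, from the odd probes, at 31631731 to 31632070. It had 388 reads per bin, with an interval of 361 to 416. Its p-value was 1.91e-05, the rank 27 of 542. The third gene of the family, PRRC2B, had 2 LacZ peaks with 94 and 87 reads per bin and no even or odd peak. The 3 PRRC2 genes thus each had a different set of lists.

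**Figure D2:**
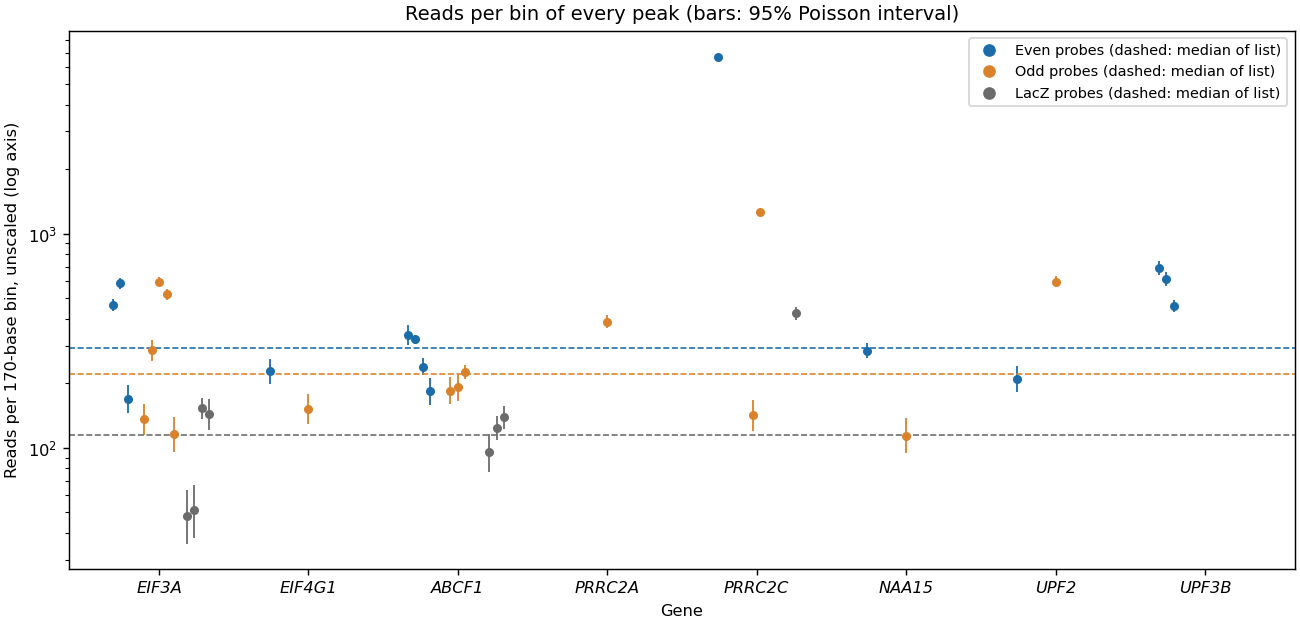
Reads per bin of 170 bases (vertical axis, log scale, unscaled) for every peak of each gene, with points coloured by probe set, 95% Poisson intervals as bars and the median of each whole list as a dashed line. The even PRRC2C peak, at 6685, stands above all other points, and the LacZ points of EIF3A and ABCF1 lie between 48 and 152.5.

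NAA15 (gene ID 80155) encodes the auxiliary subunit that anchors the N-terminal acetyltransferase NatA to the ribosome, where it modifies nascent proteins. It spans chromosome 4, 139301505 to 139391384. The even peak at 139370081 to 139370420 had 284 reads per bin, and the odd peak covered its second window, 139370251 to 139370420, with 114. The place lay 76.5% of the way along the gene from its annotated start. The even peak was at rank 103 of 502 by p-value and the odd peak at rank 485 of 542, so the region shared by the ZNF609 probe sets was near the weak end of the odd list.

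The decay factor genes among the members, UPF2 and UPF3B, had no LacZ peak and were each led by a different ZNF609 probe set. A LacZ peak was found in 52.5% of the 847 protein-coding genes with a peak. UPF2 (gene ID 26019) encodes the adaptor between UPF1 and UPF3B and spans chromosome 10, 11920022 to 12043170, on the minus strand. The odd peak at 12035151 to 12035490 had 597 reads per bin (interval 564 to 632). By its p-value of 3.02e-06 it stood 17 of 542. The even peak occupied 1 of its 2 windows, 12035151 to 12035320, with 210 reads per bin (interval 183 to 240) and rank 301 of 502. Relative to the median of its list the odd peak had 2.70 times and the even peak 0.717 times as many reads. Both lay near the start of the gene, the odd peak beginning 7680 bases after it.

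UPF3B (gene ID 65109; chromosome X, 119805311 to 119852963) encodes the protein that binds UPF2 and the exon junction complex. It had 3 even peaks within 2210 bases and no odd or LacZ peak. They had 691 reads per bin at 119841161 to 119841330, 614 at 119841671 to 119841840 and 459 at 119843031 to 119843370. The intervals of the first pair, 640.4 to 744 and 566 to 665, overlapped, and that of the last, 429.8 to 489.7, lay below both. Their p-values of 1.21e-08, 6.61e-08 and 2.55e-06 put them at ranks 12, 17 and 33 of 502, the 3 strongest even peaks among the members by p-value.

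The p-values of the members did not follow their read numbers alone. Each peak also carries a score in the last column of the lists, whose meaning no source states. Apart from bins with a fixed value of 0.01, under which no member peak lay, it comes in whole steps, 4434 to a value of 1. As means per window, UPF3B had 1 to 1.5 steps, PRRC2A 1 and NAA15 2. The nested PRRC2C peaks had 44.7 steps under the even, 34.3 under the odd and 54.5 under the LacZ peak. These peaks differ in width, so the means cover different windows. The further odd PRRC2C peak had 2 steps. In all 6 pairs of member peaks on identical bases in different lists, the score was the same in both lists. The even UPF3B peak of 691 reads per bin had a smaller p-value than the even PRRC2C peak of 6685, whose p-value was 0.000878. The odd UPF2 peak had 14 steps and 597 reads per bin, with a p-value of 3.02e-06. The odd EIF3A peak at 119051171 had 1 step and 116 reads per bin, with a p-value of 0.00716. As these peaks differ in reads and in score, the pair does not separate the effects of reads and score. What part the score had in the p-values was not tested. Over all peaks of a list the score and the reads per bin had a Spearman correlation of 0.645 in even (n = 502), 0.664 in odd (n = 542) and 0.639 in LacZ peaks (n = 722). Peaks of a list share a library, and a peak enters the list by its p-value, so these correlations are descriptions. Ranked by reads in place of p-value, 11 of the 17 best ranks of a member in a list stood lower and 6 higher, and PRRC2C was higher in all 3 lists.

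**Figure D3:**
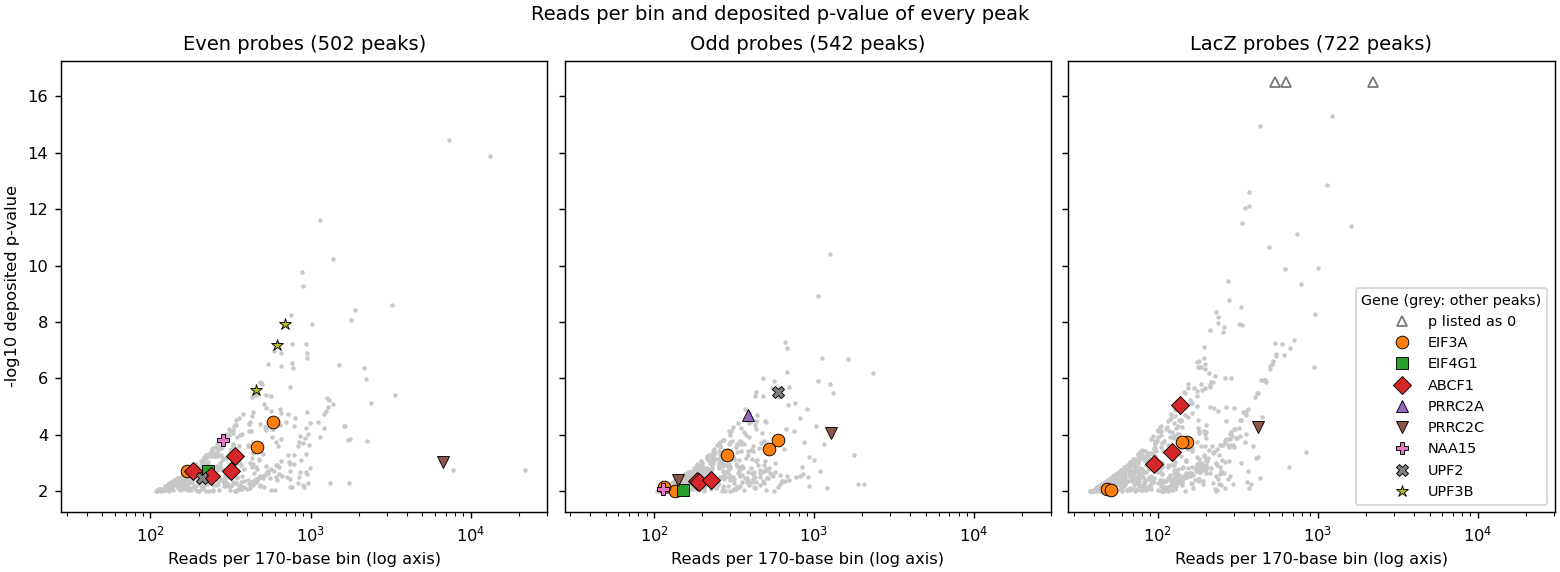
Reads per bin (horizontal axis, log scale) and the -log10 of the deposited p-value (vertical axis) for every peak of the 3 lists, with the 8 genes as large symbols, other peaks in grey and LacZ peaks with a p-value listed as 0 as open triangles at the top. UPF3B lies along the upper left edge of the even peaks, and PRRC2C lies far to the right with a p-value of 0.000878.

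**Figure D4:**
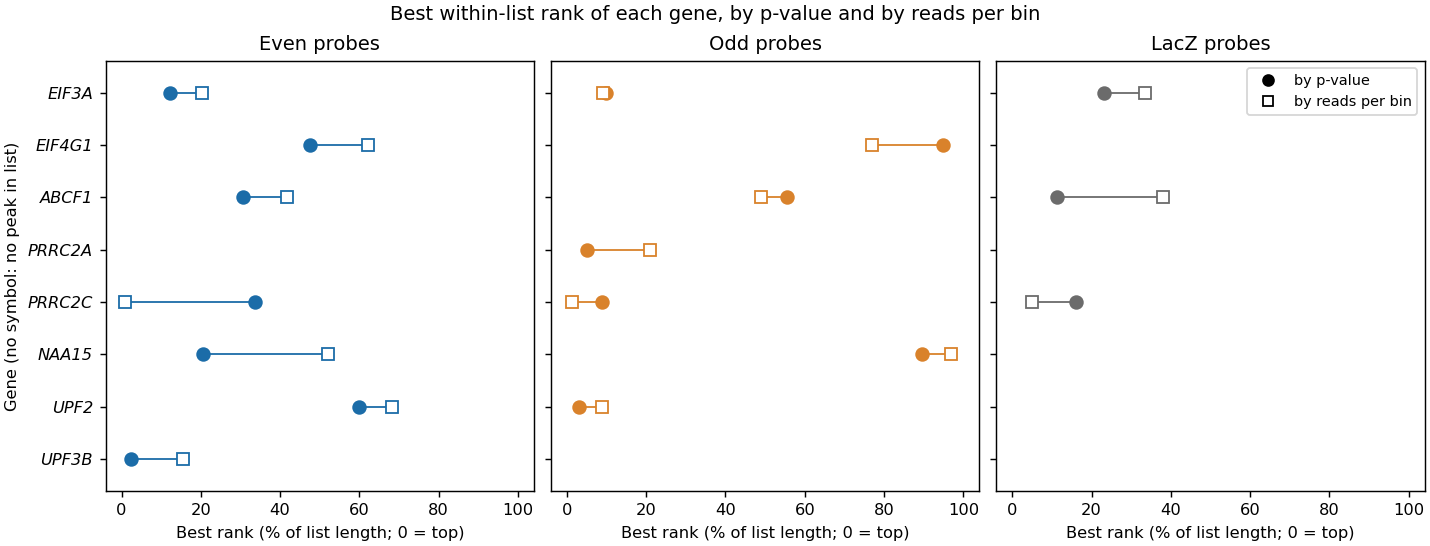
Best rank of each gene within each list as a percentage of the list (horizontal axis, 0 at the strongest), by p-value (filled circles) and by reads per bin (open squares), joined by a line. The longest even line is that of PRRC2C, from rank 169 by p-value to rank 5 by reads.

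Merged over the 3 lists, the member peaks formed 21 regions. Of these, 4 were shared by even and odd probes without a LacZ peak, 1 each in UPF2, NAA15, EIF3A and ABCF1, against 3.49% of all 1549 regions. A further 4 were shared by all 3 probe sets, of which 2 lay in EIF3A and 1 each in ABCF1 and PRRC2C. Even and LacZ probes without odd shared 2, both in ABCF1, and odd and LacZ without even shared 1, in EIF3A. Of all regions, 2.52% were shared by all 3 probe sets, 2.26% by even and LacZ alone and 3.16% by odd and LacZ alone. Counted by peak, 8 of 14 even member peaks overlapped an odd peak and 6 of 14 a LacZ peak, where the whole even list had 18.5% and 14.7%. These overlaps were part of what defined the members, so they carry no weight. With p-values limited to 0.001 or less, 0 of the 4 regions and 0 of the 3 genes held by both ZNF609 probe sets without LacZ were left. NAA15 then had an even and UPF2 an odd peak alone, and EIF4G1 had no peak.

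The other genes of these pathways were counted in the same way. The members and 120 other genes were put in 7 lists of initiation factors, elongation and termination factors, decay and exon junction factors, N-terminal acetyltransferases, the ABCF and PRRC2 families, and kinases and other regulators of translation. Of the 120 others, 12 had a peak (10%), against 4.22% of the 20056 annotated protein-coding genes. Expression and gene length were not matched, and genes silent in RD cells cannot give a peak, so nothing particular to these lists is read from the shares. Among the 12, 5 had an even, 2 an odd and 7 a LacZ peak, and 0 had even and odd peaks together. Among all 847 protein-coding genes with a peak, 4.96% had both without LacZ and 5.31% had both with it. The members had been taken out of these lists with their peaks known, so the count of 0 depends on that choice. Nothing is read from it. Of 56 initiation factors 6 had a peak, and besides EIF3A and EIF4G1 these were EIF2B5 (odd, 235 reads per bin), EIF2S2 and EIF5B (even and LacZ) and EIF3J (even). Of 13 elongation and termination factors, EEF1G alone had a peak, from LacZ probes, with 52 reads per bin. Of 22 decay and exon junction factors 3 had a peak, UPF2, UPF3B and, in the LacZ list, RBM8A, a core protein of the exon junction complex (82 and 79 reads per bin). UPF1, UPF3A and the SMG genes had no peak in any list. The family of NAA15 had no further member with a peak among 13 acetyltransferase subunits, and neither ABCF2 nor ABCF3 had one. The LacZ peaks of RBM8A also lay in LIX1L-AS1, and without strand these genes cannot be told apart.

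The genes closest to a member in pattern were those with peaks in the same lists and the nearest best ranks, taken as shares of the list length and summed over the lists. For PRRC2A, with 1 list to compare, these were UBA2 (distance 0.00185) and HMGN1 (0.00738). For UPF3B, also with 1 list, they were EPHA7 (0.00797) and RPTOR (0.0120), the latter a subunit of the growth kinase complex mTORC1. Over the even and odd lists, NAA15 was closest to HMGB2 (0.0537) and HUWE1 (0.0677), UPF2 to DNAJB12 (0.171) and SRRM1 (0.198), and EIF4G1 to LOC102724262 (0.139) and DYNC1I2 (0.232). Over all 3 lists, EIF3A was closest to ANKRD11 (0.292) and PRRC2C (0.293), and PRRC2C to CEP250 and its antisense gene CEP250-AS1 (0.249 each). Distances over more lists are larger by construction.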

How the data were processed

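RNA pulled down from RD cells with 3 probe sets was described, with 1 library each; the input was not analysed here. STAR 2.5.2b, SAMtools, Picard, bedtools, Trimmomatic and bcl2fastq 2.0.2 and the build GRCh38 are listed per the submitters' processing notes, without roles or settings. Piranha is the caller that the deposited file names give, its settings being not given in the sources used here, and each library had its own list.

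The lists have no header, so units were read from the values. The deposited signal is reads per bin of 170 bases, unscaled: every peak gave a whole number of reads (tolerance 0.02) and lay on a grid of 170 bases. Each deposited p-value was below 0.01; any correction is not given. The deposited score in the last column is unexplained, and 0 of the 36 member peaks lay over a bin with its fixed value of 0.01. The lists print every peak on the plus strand, and strand was ignored.

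Peaks were joined to RefSeq gene spans (GRCh38.p14; 8 of 8 members matched by symbol; promoter windows for 7 of them), with coordinates counted from 1. Exon positions were not used here. Overlap of at least 1 base counted as shared, and ranks are by p-value within a list. Intervals are exact Poisson 95% intervals on the reads of a peak (scipy 1.17.1, Python 3.11.15, pandas 2.3.3), for counting error only. No source states whether duplicate reads were removed. No test was run between probe sets. Code was tested on simulated data.

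The 8 members and the 7 gene lists were chosen with earlier results of these data known. All members and all listed genes with a peak were named, with the 2 genes nearest in pattern to each member (those of ABCF1 are not reported here); the markers DES, TNNT2, MYOD1 and MYOG, and the genes without a peak that are named, were picked as examples after the values were seen. Alternatives were a p-value limit of 0.001, a reciprocal overlap of 50%, a distance of 200 bases, leaving out peaks over the fixed score, lists trimmed to equal length, 1 gene per peak, and ranks by reads.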

Additional observations from a re-analysis of the deposited data

How the results depend on the processing

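The counts of member peaks, members and shared regions were recomputed under 6 settings. The overlap and distance rules act on the shared regions alone, so the other counts could not change under them. Of the 48 values, 42 stayed within 1.5 times the reported ones, but many of these could not move, so their number does not measure stability. The other 6 came from the p-value limit of 0.001, which left 8 even, 6 odd and 5 LacZ member peaks, 4 members with an odd peak, 0 members held by both ZNF609 probe sets without LacZ, and 0 regions of that kind. In lists trimmed to equal length the 3 members of that kind became 2, without EIF4G1. The 4 shared regions became 5 with a reciprocal overlap of 50%, where a second ABCF1 region counted, and 3 within 200 bases, where the ABCF1 region joined a LacZ peak. Leaving out peaks over the fixed score, or giving each peak to 1 gene, could change none of the 8 counts. No member peak lay over such a bin or in a further gene. Ranked by reads per bin, the median best rank of the members moved from 154 to 210 in the even list, from 53 to 114 in the odd list and from 116 to 242 in the LacZ list. With 1 library per probe set no replicate could be left out, and no paired analysis was possible because each group has 1 sample. The lists omit bins above their p-value limit, so a missing peak is not an absence of reads.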

Other observations

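Initiation factor genes outside the 8 members had some of the stronger even peaks. EIF3J, which encodes a loosely bound subunit of eIF3, had 4 even peaks on chromosome 15, with 1217 reads per bin at 44537281 to 44537450, 1313.5 at 44550711 to 44551050, 947 at 44551391 to 44551560 and 132 at 44554451 to 44554620. The strongest was at rank 40 of 502 by p-value and rank 23 by reads, and EIF3J had no odd or LacZ peak. EIF5B, the factor that joins the ribosomal subunits, had 3 even peaks on chromosome 2, with 741.3, 995 and 160.5 reads per bin, and 1 LacZ peak with 123.5 at another place. EIF2S2, the beta subunit of eIF2, had an even and a LacZ peak on the same bases, chromosome 20 at 34105231 to 34105570, with 414 and 159.5 reads per bin. A further even EIF2S2 peak, at 34103531 to 34103700 with 328 reads per bin, lay under a LacZ peak at 34103361 to 34103700 with 132. By p-value, in the same order, the even EIF2S2 peaks were at ranks 66 and 114 of 502. The LacZ peaks were at ranks 77 and 143 of 722, so the LacZ probes held these places as high in their longer list.

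Regulators of translation were divided between the lists. RPTOR, a subunit of the growth kinase complex mTORC1, had 3 even peaks with 187, 623 and 904 reads per bin, the last at rank 6 of 502 by p-value, and no odd or LacZ peak. EIF2AK4, the kinase that senses uncharged tRNA, had 2 even peaks with 346 and 334.5 reads per bin, and its activator GCN1 had 2 LacZ peaks with 95 and 105. FXR1, an RNA-binding protein related to FMR1, had 2 odd peaks with 159.5 and 143 reads per bin. CTIF, which binds the nuclear cap-binding complex in early rounds of translation, had 1 LacZ peak with 127.5.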
